A study of Mus musculus with 3 samples.

Results

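The 8 genes described here encode subunits of 3 complexes that act with CPSF in making the 3′ ends of mRNA. They are Cstf1, Cstf2t and Cstf3 of the cleavage stimulation factor (CstF), Nudt21, Cpsf6 and Cpsf7 of cleavage factor I, and Clp1 and Pcf11 of cleavage factor II. They were chosen by name for their function, and their sites were all those listed on the gene's strand from the gene start to 1000 bases past the gene end in GENCODE M21. This gave 104 poly(A) sites for the 8 genes, out of 178115 sites in the series and 15547 autosomal protein-coding genes with a listed site. The sites held 17488 reads, 33 of them had reads in every library and 52 in 1 library only.

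The data are poly(A) site sequencing libraries made with a QuantSeq protocol, in which a read marks the 3′ end of a polyadenylated RNA. The cells were F121-9, a hybrid mouse embryonic stem (ES) cell line of Cast x 129 origin, for which the labels name no treatment and no altered allele. The series has 1 group of 3 libraries, biological replicates 1, 2 and 3, all from passage 14 and from 500 ng of RNA. Nothing in the labels ties the replicates to separate cultures, so the spread between them may be partly technical.

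Cleavage and polyadenylation starts when CPSF binds the AAUAAA signal (AATAAA in DNA letters) upstream of the cut. CstF binds GU-rich RNA downstream of the cut and is a dimer of trimers, in which CstF-77 (Cstf3) holds together CstF-50 (Cstf1) and CstF-64 (Cstf2 or its copy Cstf2t). Cleavage factor I binds UGUA upstream of the cut through Nudt21 and favours distal sites in many genes, while Pcf11 and Clp1 of cleavage factor II join cleavage to the release of RNA polymerase II.

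The libraries had 10147672, 13513327 and 13040620 reads at listed sites in replicates 1, 2 and 3. Gene and site levels are in RPM, reads scaled to the depth of the library (to 1000000 reads), and with 1 read per RNA end they are not divided by length. Replicate 3 had 0 reads on the X chromosome and only 216 reads off the autosomes in all. Replicates 1 and 2 had 821582 and 1012989 reads off the autosomes, of which 333238 and 453670 were on the X. The gap in replicate 3 is thus not confined to the X, and its origin is not given. X-linked genes have values for 2 libraries, and scaling to autosomal reads lowers the values of replicate 3 by comparison with the other libraries. The ES cell markers Pou5f1, Sox2, Nanog, Esrrb, Zfp42, Klf4, Tfcp2l1 and Tdh had reads in every library and summed to 3079 to 3624 RPM. The 6 fibroblast feeder markers summed to 52.2 to 132 RPM, nearly all from Thy1, with Postn at 0 in every library. The 5 primitive endoderm markers summed to 2.98 to 9.95 RPM. Fewer RNA molecules per cell and fewer cells with the RNA cannot be told apart in such bulk libraries.

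The sequences below are the 30 bases that end at the sites on which the results turn, so that each signal can be read beside the use of its site. They come from the RefSeq sequence of GRCm38 (mm10), on the strand of the gene and 5′ to 3′. Capitals mark AATAAA, or ATTAAA where no AATAAA is listed, among the poly(A) signals that the deposited lists give for the site. Cstf1 (chromosome 2, plus strand, 172370681 to 172382448) had a proximal site at chr2:172381058-172381087 and a distal site at chr2:172382407-172382436, both in its last exon. The Cstf2t site lay at chr19:31086561-31086590 on the plus strand, in the only exon of the gene. Cstf3 (chromosome 2, plus strand, 104590523 to 104665429) had a site in intron 3 at chr2:104609399-104609428 and a site in its last exon, exon 21, at chr2:104665395-104665424.
Cstf1 proximal site: tggtAATAAAgctcagatctacaacctcac
Cstf1 distal site: aaagatgtgatttctaaAATAAAttttttt
Cstf2t site: atgaaaattaAATAAAaaggttgtataatt
Cstf3 intron 3 site: ttgcaacaacATTAAAacagtttcaatggt
Cstf3 last exon site: ctttgaaaggAATAAAaggacctcaaaaac
The signal started 26 and 13 bases before the end at the Cstf1 sites, and 20 bases before it at the Cstf2t and both Cstf3 sites. The Cstf3 site in intron 3 is the only site of these 5 with ATTAAA, the commonest variant, in place of AATAAA.

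For the cleavage factor I genes the sites shown are the main last-exon site of each gene, the intronic site of Cpsf6 and the downstream sites that took a sizeable share. Nudt21 (chromosome 8, minus strand, 94015496 to 94037031) had a site at the annotated end at chr8:94015498-94015527 and a downstream site at chr8:94015220-94015249. Cpsf6 (chromosome 10, minus strand, 117344673 to 117380015) had a site in intron 9 at chr10:117351237-117351266. Its 3 most used sites, in or at the end of exon 10, lay at chr10:117349033-117349062, chr10:117347288-117347317 and chr10:117344661-117344690, the last of them 12 bases past the annotated end. Cpsf7 (chromosome 19, plus strand, 10525266 to 10547653) had its main site at chr19:10547624-10547653, at the annotated end, and a further site at chr19:10547700-10547729.
Nudt21 end site: ctgttatttcAATAAAaatatttaaaactg
Nudt21 downstream site: cagatgcttcgATTAAAggtgtaagccacc
Cpsf6 intron 9 site: atagaAATAAAagtttctaaactattccgt
Cpsf6 exon 10 early site: tgtAATAAActgtttatggggctgatgtgt
Cpsf6 exon 10 middle site: aggaaaaAATAAAatagctttggtttgtct
Cpsf6 exon 10 end site: AATAAAaacaaagttttggtaatactttgc
Cpsf7 end site: aaattgtgtAATAAActtgatgacgatgtc
Cpsf7 downstream site: ttttaaatAATAAAtggggtgtgagctgtt
All 4 Cpsf6 sites shown and both Cpsf7 sites carried AATAAA, and the Nudt21 downstream site carried ATTAAA.

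For cleavage factor II, the Clp1 site lay at chr2:84723124-84723153 on the minus strand, within 2 bases of the ends of Clp1-201 and Clp1-202. Pcf11 (chromosome 7, minus strand, 92643543 to 92669934) had last-exon sites at chr7:92644255-92644284 and chr7:92643714-92643743. Its most used site was in exon 5, at chr7:92661508-92661537, and for that site the 20 bases after the end, at chr7:92661488-92661507, are shown too, with each A in capitals.
Clp1 site: caattattttAATAAAtatgattgtgatag
Pcf11 exon 5 site: gggcaaagatgaagatgtaaaagaaaagag
Pcf11 exon 5, bases after the site: AAAAActgcAgAAAAgAAgg
Pcf11 last exon proximal site: aaattataAATAAAaaatatttttgctatc
Pcf11 last exon distal site: ttcatacatgtAATAAActgaatgatgaac
The exon 5 site had neither AATAAA nor ATTAAA in the 40 bases upstream, and the deposited list names an ATTAAA starting 60 bases before it. The list also names the variants GATAAA and AAGAAA, starting 41 and 10 bases before the site. The AAGAAA lies within the bases shown and is not in capitals there. Of the 20 bases after it 12 were A, which meets the A-rich criterion used here for possible priming inside a transcript (12 A or more among those 20 bases, or 6 in a row). The other sites shown in these lists did not meet it.

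Levels of the 8 genes were asked first, as a measure of how abundant the polyadenylated RNA of each gene was. The genes spanned from 3.14 to 115 RPM, with Cpsf6 highest and Nudt21 lowest. Of the 8, 7 had a mean of at least 10 RPM, a level that is common in these data. Clp1, at 13.7 RPM, stood at only the 42.8 percentile of 12190 autosomal protein-coding genes at 1 RPM or more. Most of those genes were thus above 10 RPM, and counts at that level do not set a list apart. The median of the 8 members was 60.3 RPM, against 19.9 RPM over 11862 autosomal protein-coding genes with at least 50 reads. The other 3′ end processing genes of a list of 15 (CPSF subunits, poly(A) polymerases, the nuclear poly(A) binding protein and others) were at 10 RPM or more in 15 of 15 cases. Their median was 89.9 RPM, from 33.6 RPM for Papolg, a poly(A) polymerase, to 253 RPM for Cpsf1, the largest CPSF subunit. That list includes the X-linked Cstf2 with its 2 libraries, and without it the median over 14 genes was 86.6 RPM. All levels are given as a description, with no test.

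**Figure D1:**
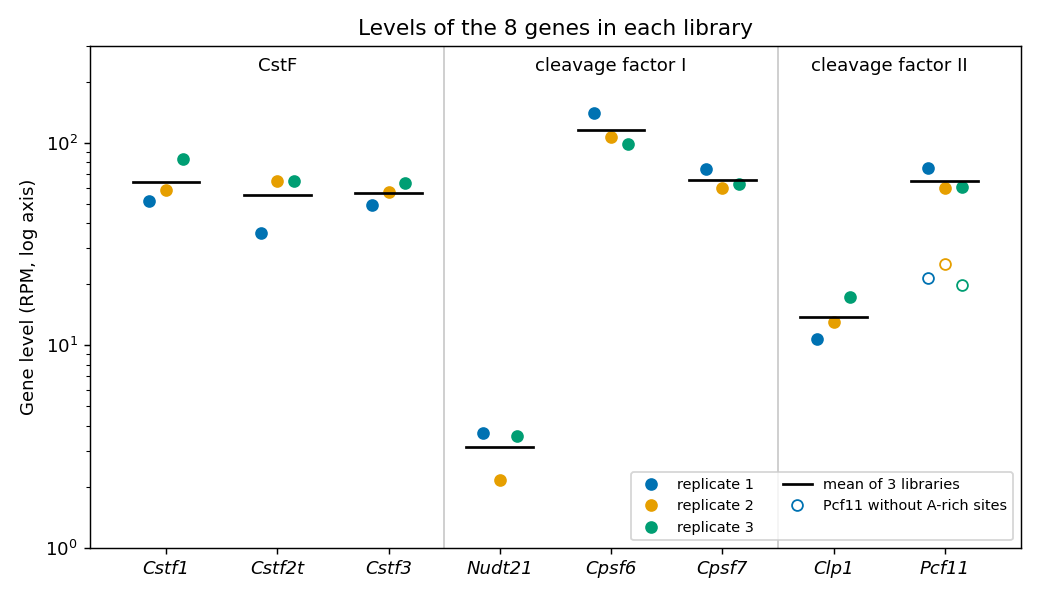
Level of each gene in RPM (log axis) in replicates 1, 2 and 3, with a line at the mean of the 3 libraries and open circles for Pcf11 without its A-rich sites. Cpsf6 lies highest, at 98.5 to 140.3 RPM, Nudt21 lowest, at 2.15 to 3.70 RPM, and Pcf11 falls to 19.7 to 25.2 RPM without its A-rich sites.

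Among the CstF genes, Cstf1, whose protein CstF-50 carries WD40 repeats, was at 51.7, 58.4 and 82.5 RPM in replicates 1, 2 and 3 (64.2 ± 16.2, SD, n = 3). Replicate 3 was the highest, and it stayed so after scaling to autosomal reads (61.4, 69.4 and 89.0). Cstf3, the scaffold subunit, was at 49.0, 57.0 and 63.0 RPM (56.3 ± 7.03). Cstf2t, an intronless copy of Cstf2 best known from male germ cells, was at 35.8, 64.8 and 64.6 RPM (55.1 ± 16.7). Replicate 1 was low for Cstf2t, and the other two libraries were nearly equal. Cstf2 itself is X-linked and was at 250.0 and 242 RPM in replicates 1 and 2, so that Cstf2t stood at 14.3% and 26.8% of the Cstf2 level there. The handling of multi-mapping reads is not given here, so the split between Cstf2 and its copy is uncertain. Cstf2t lies inside Prkg1, which is on the opposite strand, and none of the 104 sites lay in another gene on its own strand.

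Among the cleavage factor I genes, Cpsf6, which encodes the larger of the subunits known to pair with the Nudt21 protein, was at 140.3, 106.7 and 98.5 RPM (115 ± 22.1, SD, n = 3). Cpsf7, which encodes the alternative partner, was at 74.0, 59.8 and 62.2 RPM (65.3 ± 7.57). Replicate 1 was the highest for both. Cpsf6 exceeded Cpsf7 in 3 of 3 libraries, by 1.90, 1.78 and 1.58 times, and their ranges did not overlap. Nudt21, which encodes the subunit that reads UGUA, was at 3.70, 2.15 and 3.56 RPM (3.14 ± 0.853), from 123 reads in all. Every library put Nudt21 below every other member, and Cpsf6 was 27.7 to 49.5 times higher in the same library. Between 1001 and 10000 bases past the annotated Nudt21 end only 1 further site was listed on its strand, with 2 reads, so a window of 10000 bases would add only these 2 reads.

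Among the cleavage factor II genes, Pcf11, a scaffold that touches the polymerase C-terminal domain, was at 74.6, 59.4 and 60.1 RPM (64.7 ± 8.60, SD, n = 3). Without its A-rich sites it was at 21.4, 25.2 and 19.7 RPM (22.1 ± 2.81), a loss larger than the spread between libraries. Clp1, an RNA kinase also found in the tRNA splicing complex, was at 10.7, 13.1 and 17.3 RPM (13.7 ± 3.32). Pcf11 exceeded Clp1 in 3 of 3 libraries, by 6.95, 4.55 and 3.48 times with all sites and by 1.99, 1.93 and 1.14 times without A-rich sites.

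In the order of the means, Cpsf6 stood first, then Cpsf7, Pcf11, Cstf1, Cstf3 and Cstf2t, then Clp1 and Nudt21. The ranges of neighbours overlapped from Cpsf7 to Cstf2t. Within libraries, Cstf1 exceeded Cstf3 in 3 of 3, by 1.06, 1.02 and 1.31 times, and the other neighbours among these 5 genes changed places between libraries. The place of Pcf11 rests on its A-rich sites: without them its range, 19.7 to 25.2 RPM, lay below that of Cstf2t and above that of Clp1, with no overlap. The steps from Cpsf6 to Cpsf7, from Cstf2t to Clp1 and from Clp1 to Nudt21 did not overlap in the 3 libraries, also after scaling to autosomal reads. Among 12190 autosomal protein-coding genes at 1 RPM or more, Cpsf6 stood at the 88.2 percentile and the next 5 members at the 75.3 to 79.1 percentiles. Without its A-rich sites, Pcf11 would stand at the 53.8 percentile of these levels, which count all sites of the other genes. Clp1 stood at the 42.8 and Nudt21 at the 15.9 percentile.

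The next question was where in each gene the RNAs ended. In 5 members a single last-exon site, or the site at the end of the shorter annotated transcripts for Clp1, held most of the reads, while Pcf11, Cpsf6 and Nudt21 did not have this form. The leading site carried AATAAA in 7 of 8 members, against 65.8% of the 11862 genes, and Pcf11 was the exception. The leading site had the deposited code EX or IN in 1 of 8 members, Pcf11, against 4.51% of genes. It was A-rich in 1 of 8, again Pcf11, against 1.61% of genes. These are counts over 8 genes chosen by name, with no test. The deposited codes TE, DS, EX and IN are not explained in the files, and by position they held sites in terminal exons, downstream, in other exons and in introns for most members, with exceptions given below.

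**Figure D2:**
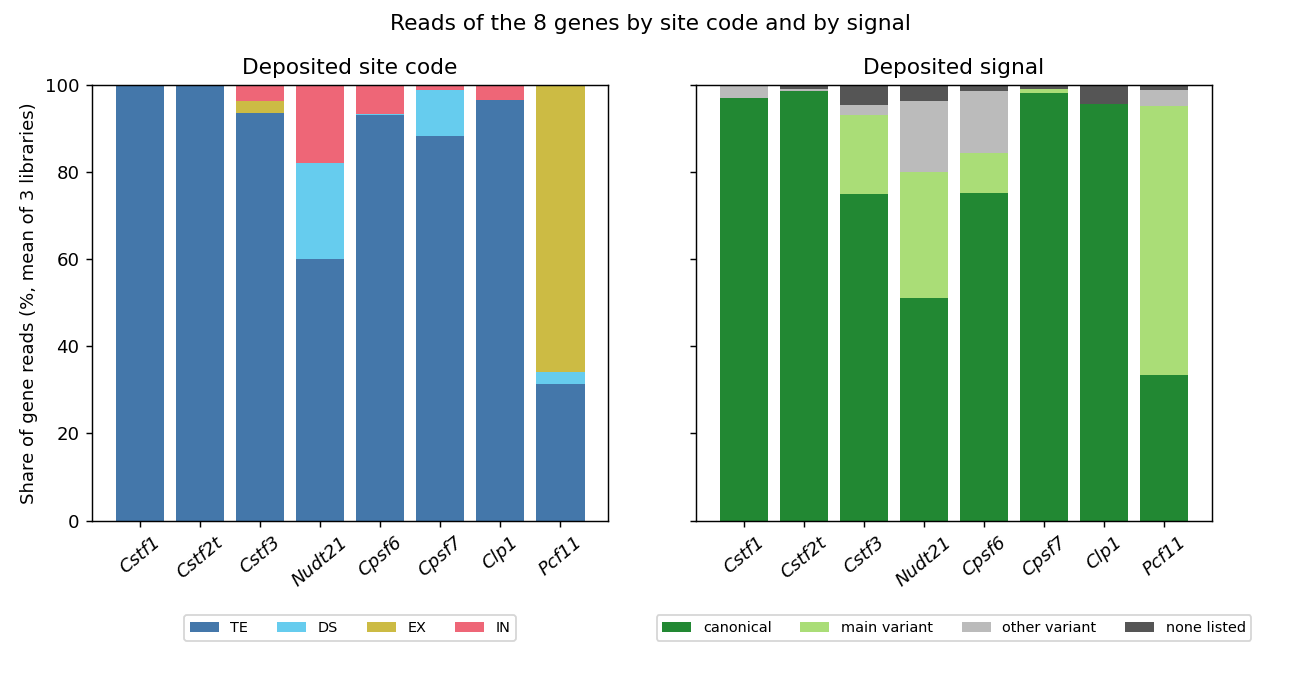
Mean share of each gene's reads over the 3 libraries by deposited site code (left) and by deposited signal (right: canonical, AATAAA; main variant, ATTAAA; other variant; none listed). The EX code holds 65.9% of Pcf11, and the ATTAAA share of 61.7% there is the signal named 60 bases upstream of the exon 5 site.

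For Cstf2t the leading site held 99.5%, 98.4% and 98.1% of the gene's reads in replicates 1, 2 and 3 (98.7% ± 0.716, SD, n = 3). It lay 479 bases before the annotated end of the gene, and 12 reads, all in replicate 3, were listed near that end. For Cstf1 the proximal site held 88.5%, 71.7% and 86.4% (82.2% ± 9.17) and the distal site, 12 bases before the annotated end, 9.77%, 24.1% and 10.8% (14.9% ± 7.99). Replicate 2 stood apart for Cstf1, with the lowest proximal and the highest distal share. The remaining 4 Cstf1 sites held 3.07% of its reads.

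Cstf3 RNAs ended at 2 main places, in intron 3, 56001 bases before the gene end, and at the end itself. The last-exon site held 70.9%, 71.4% and 76.4% of the reads (72.9% ± 3.04, SD, n = 3), at 34.7, 40.7 and 48.1 RPM. The site in intron 3 held 15.3%, 20.1% and 15.7% (17.0% ± 2.65), at 7.49, 11.4 and 9.88 RPM. The intronic site was thus at 21.6%, 28.1% and 20.5% of the level of the last-exon site, highest in replicate 2. It is known from other work that intron 3 of Cstf3 holds a conserved poly(A) site whose use gives a short transcript. The deposited code of this site is TE, and so it does not count among the sites coded IN. The site lies 1 base from the end of the annotated transcript Cstf3-206. All 14 sites in intron 3 together held 19.3%, 23.6% and 18.5% of the reads, and the named site made up 79.0% to 85.0% of these. The 23 sites of Cstf3 below 5% of reads had 1 to 52 reads each. Among them, a site in intron 1 was coded IN and had reads in all 3 libraries, but 7 reads in all (0.336% ± 0.217), and it was A-rich.

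**Figure D3:**
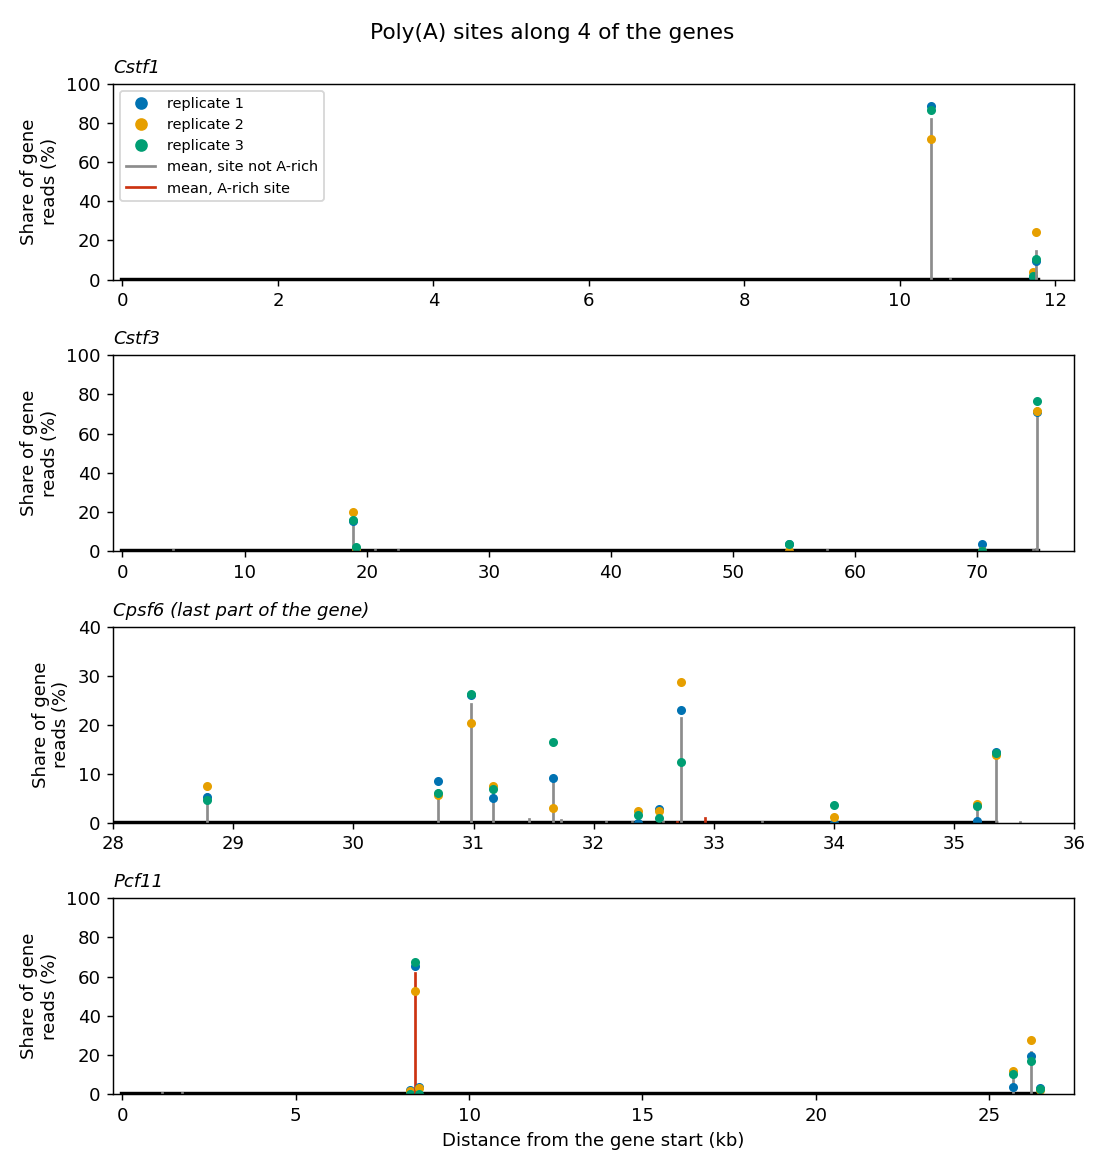
Share of the gene's reads at each listed site against the distance of the site from the gene start in kb, with lines to the mean of 3 libraries (red for A-rich sites) and points for the libraries at sites with a mean of at least 1%. Cstf3 has 2 main places, Cpsf6 has 7 sites of at least 5% near its end, and the leading Pcf11 site, at 61.7%, lies far upstream of the last exon.

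Cpsf6 spread its reads over more sites than any other member, with 32 listed sites, 7 of which each took 5% or more of the reads. The early site of exon 10 held 26.0%, 20.4% and 26.3% of the reads in replicates 1, 2 and 3 (24.2% ± 3.34, SD, n = 3). The middle site held 23.0%, 28.8% and 12.3% (21.4% ± 8.33), and replicate 3 was low there. The site 12 bases past the annotated end held 14.4%, 13.8% and 14.3% (14.2% ± 0.313), the steadiest of the 7. A site at 117348350, with the variant ATTACA, held 9.20%, 3.03% and 16.4% (9.54% ± 6.69), and it was low in replicate 2 and high in replicate 3. The sites at 117349309 and 117348852 held 6.74% ± 1.58 and 6.44% ± 1.27. The early site led in replicates 1 and 3 and the middle site in replicate 2, so the leading Cpsf6 site was not the same in every library. Of the 5100 genes with at least 2 sites of 5% or more in a terminal exon, 46 (0.902%) had 6 or more there, as Cpsf6 did.

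The intronic site of Cpsf6, in intron 9, held 5.27%, 7.51% and 4.69% of the reads (5.82% ± 1.49, SD, n = 3), at 7.40, 8.01 and 4.62 RPM. Its AATAAA started 25 bases before the end, and the nearest annotated transcript end was 1863 bases away. Together the 7 Cpsf6 sites coded IN held 6.69%, 7.95% and 5.63% of the reads (6.76% ± 1.16). Cpsf7 had 86.5% ± 4.02 of its reads at the annotated end and 10.6% ± 3.86 at the site 76 bases further, which was lowest in replicate 1, at 6.34%, and higher in replicates 2 and 3, at 13.8% and 11.7%. A Cpsf7 site in intron 2 with AATAAA had reads in all 3 libraries, 25 in all, and held 0.958% ± 0.372. The genomic bases ending at this site finish in a run of A, and 9 of the 20 bases after it were A. The A-rich criterion counts only bases after a site, so this site did not meet it. Whether its reads come from priming inside a transcript was not tested.

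Nudt21 had too few reads for firm shares. Its site at the annotated end had 36, 21 and 0 reads in replicates 1, 2 and 3, and the site 276 bases further downstream had 0, 2 and 30. Replicate 3 thus differed from the others in which of the 2 ends was listed. A site in intron 2, coded IN, had 2, 3 and 11 reads (12.1% ± 8.88), and the sites in introns 3 and 6 had 4 and 2 reads, each in a single library. The early last-exon site at 94019396, 9 bases from the end of Nudt21-202, had 1, 0 and 9 reads. A count of 0 allows up to 3 reads, or 0.213 RPM in replicate 3, and covers counting error only.

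Clp1 had 80.7%, 96.9% and 99.2% of its reads at the end of Clp1-201 and Clp1-202 (92.3% ± 10.1, SD, n = 3), with replicate 1 low. A site coded IN, 302 bases further on in an intron of the longer Clp1-203, had 12 reads in replicate 1 (10.1%) and 0 in replicates 2 and 3. The genomic bases ending at this intronic site also finish in a run of A, which the A-rich criterion does not count, and priming there was not tested. No site was listed at the end of Clp1-203, which lies 1020 bases past the leading site.

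Pcf11 differed from the other members in that most of its reads lay at sites coded EX, in an internal exon away from annotated transcript ends. The leading Clp1 site also lay in an internal exon of its main transcript (exon 3 of Clp1-203), but at the end of shorter annotated transcripts. The exon 5 site of Pcf11 was 6676 bases from the nearest transcript end. This Pcf11 site held 65.4%, 52.5% and 67.2% of the gene's reads (61.7% ± 8.03, SD, n = 3), at 48.8, 31.2 and 40.4 RPM, and was the leading site in 3 of 3 libraries. It lay 8426 bases from the gene start and 17965 bases before the annotated end. Of the 5 exon 5 sites, 3 were A-rich, the leading one among them, and these 3 held 71.3%, 57.6% and 67.2% of all Pcf11 reads. The last-exon distal site held 19.5%, 27.9% and 16.9% (21.4% ± 5.74) and the last-exon proximal site 3.87%, 11.7% and 10.3% (8.61% ± 4.17). A site 81 bases past the annotated end held 2.67% ± 0.458. Without the A-rich sites, the last-exon distal site led, with 67.9%, 65.8% and 51.6% of the rest. A poly(A) site in intron 1 of Pcf11 is known from other work. In these libraries 2 sites were listed in intron 1, with 16 reads in replicate 3 only and 12 reads in replicate 1 only, which together made up 1.11% ± 0.990 of the gene. Whether the reads of the exon 5 site come from priming at its A-rich sequence was not tested.

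Intronic use over all genes gave the background for these shares. At least 5% of reads at sites coded IN in every library was found for 2 of 8 members, Cpsf6 and Nudt21, against 10.1% of the 11862 genes. Nudt21 passed on 22 intronic reads. Counted by the introns of the main annotated protein-coding transcript instead of the code, 3 of 8 members passed, Cstf3 (22.6% ± 3.10), Nudt21 and Cpsf6, against 14.4% of genes. The median IN share was 2.22% over the members and 0.631% over all 11862 genes, with no test.

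Signals and nearby motifs were described for the 19 member sites that took 5% or more of their gene's reads and had at least 50 reads. TGTA, the DNA form of the cleavage factor I motif, lay in the 100 bases upstream of 16 of these sites, read on the strand of the gene, against 52.9% of 19592 sites coded TE with at least 50 reads. The sets differ in code, since 3 of the 19 sites are not coded TE, and TGTA lay upstream of 13 of the 16 that are. They differ in share too: the 19592 sites had no minimum share of their gene's reads, so minor sites are among them. At least 3 copies lay there at 4 of 19 sites and at 2 of the 16 coded TE, against 5.39%. These 4 were the intron 9 and early exon 10 sites of Cpsf6, the downstream site of Cpsf7 and the last-exon proximal site of Pcf11, which had 5 copies. GTGT or TGTG, overlapping matches included, lay in the 40 bases downstream of 8 of 19 sites and of 7 of the 16 coded TE, against 41.3%. The 19 sites share 8 genes and some lie in the same exon, so these counts are a description and were not tested. A match is no proof of binding.

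The last question was whether the genes with tandem sites favoured the distal or the proximal one. In a terminal exon, the outermost sites that each held 5% or more of the gene's reads were compared as log2((distal RPM + 0.05)/(proximal RPM + 0.05)), a scale that understates the ratio at rarely used sites. Of 5100 genes tested with limma, 1529 (30.0%) were called distal and 636 (12.5%) proximal with an adjusted p below 0.05 and a ratio of 2-fold or more. Without replicate 2 these counts were 796 (15.6%) and 382 (7.49%), and without the variance trend that was added to the fit 911 (17.9%) and 379 (7.43%). Of the 8 members, 4 could be tested, and 1 was called proximal and 0 distal. The other 4 had no second site of that size in the terminal exon. The members' median log2 ratio was 1.26, against 1.28 over all tested genes. Among the other 3′ end processing genes 5 were tested, and 2 were called proximal and 1 distal.

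Cstf1 was the member called. Its distal site had a log2 ratio of -3.17, -1.57 and -3.00 to the proximal site in replicates 1, 2 and 3, lower in 3 of 3 libraries. The mean was -2.58 (SE 0.38), 5.97-fold lower for the distal site, with an adjusted p of 0.00184 (limma, Benjamini-Hochberg). Between the sites lie 1349 bases of the last exon, so that most Cstf1 RNAs lacked this stretch.

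Pcf11 and Cpsf6 favoured the distal site in 3 of 3 libraries without passing the test. The Pcf11 distal site had log2 ratios of 2.31, 1.25 and 0.71 to the proximal one 541 bases upstream, with a mean of 1.42 (SE 0.59) and an adjusted p of 0.0885 (limma, Benjamini-Hochberg). Replicate 1 was the highest, and its proximal site had 32 reads. The Cpsf6 end site had log2 ratios of 0.75, 1.28 and 1.25 to the site at 117349309, which lies 4648 bases upstream, with a mean of 1.09 (SE 0.46) and an adjusted p of 0.0942 by the same test. This ratio leaves the 4 sites between them aside. Against the early exon 10 site, the more used one, the Cpsf6 end site was lower, with a log2 ratio of -0.76 and an adjusted p of 0.0752 (limma, Benjamini-Hochberg). Nudt21 had log2 ratios of 4.56, 4.87 and -3.79, with replicate 3 opposite to the others, a mean of 1.88 (SE 2.10) and an adjusted p of 0.495 by the same test. That mean has no firm size: it was 0.54, 0.38 and 4.71 without replicates 1, 2 and 3, and 3.70 with edgeR on recovered reads. The pair also leaves out the Nudt21 site 276 bases past the annotated end. In replicate 3 that site had 30 reads, against 9 at the proximal site and 0 at the distal site of the pair. The negative ratio of replicate 3 thus does not show that the proximal site was used more than all distal ends there.

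**Figure D4:**
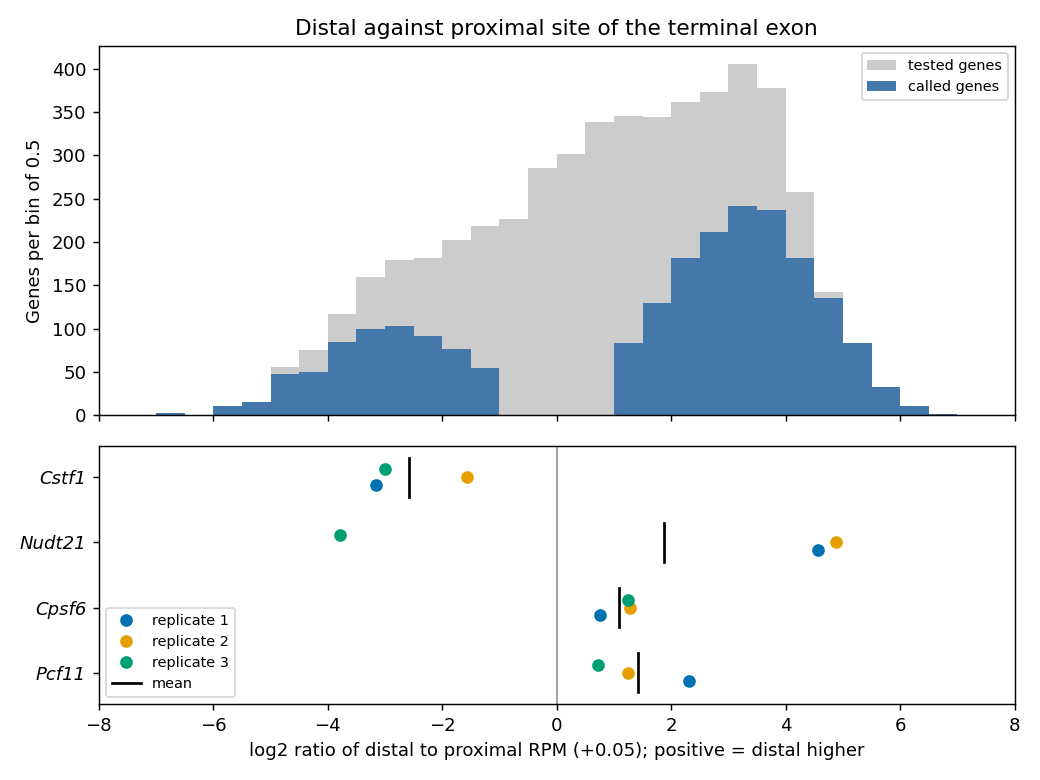
Top, number of tested genes per bin of 0.5 in the log2 ratio of distal to proximal site, with called genes in blue. Bottom, the ratio of the 4 tested members in each library with a line at the mean: all 3 Cstf1 points lie below 0, all Cpsf6 and Pcf11 points above 0, and Nudt21 has points on both sides. The Nudt21 ratio leaves out its site 276 bases past the annotated end.

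Taking the terminal sites from the deposited code TE brings Cstf3 into the test, since its intron 3 site carries this code. The last-exon site then exceeded the intron 3 site by 2.10 on the log2 scale (SE 0.30, adjusted p = 0.00193, limma with Benjamini-Hochberg adjustment). With sites down to 1% of reads Clp1 could be tested too, and its leading site exceeded an upstream site 31.9-fold (SE 0.96 on the log2 scale, adjusted p = 0.00982, limma with Benjamini-Hochberg adjustment). The upstream Clp1 site lay 118 bases before the end and had 10, 4 and 2 reads in replicates 1, 2 and 3. As the leading site held 92.3% of Clp1 reads, any site paired with it would be minor. The sign of this ratio was thus set by that minor site lying upstream, and its p-value does not show a distal preference. Cstf2t and Cpsf7 had no such pair in the terminal exon under any of these choices.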

How the data were processed

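The 3 libraries of the single group each came as a site list. The deposited site lists give a value per site and library in RPM, per the file values, since they have no header. The genome build was mm10 and the annotation GENCODE M21, per the deposited text files. Aligner, site caller and versions: not given in the sources used here. Whole reads were recovered from the RPM: 100% of values were whole within 0.01 reads, with 11085428, 14855484 and 14064461 reads in the denominators. No molecular identifiers are named, so intervals and floors cover counting error only. All 188866 deposited hexamers lay in place in GRCm38.

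The members and lists were chosen with earlier results of these data known. All 8 members, their sites of at least 5% of reads and their recurrent intronic sites are named. Tandem ratios were tested over 5100 autosomal genes with at least 50 reads, with limma 3.58.1 (R 4.3.3) and Benjamini-Hochberg adjustment. The planned fit called 0 of 200 changed genes on simulated data, so a variance trend on the log2 mean RPM of the pair was added, after the members' calls under several fits had been seen. It then called 54 of 100 simulated 4-fold, 89 of 100 16-fold and 2 of 4900 equal genes. The simulation differs from the data: 4900 of its 5100 genes used both sites equally, and all shared 1 ratio of variance to mean (14.3). In the data the planned fit called 911 genes distal and 379 proximal, so the simulated rates do not give the power there. edgeR 4.0.16 on recovered reads was an alternative. Other tables were made with Python 3.11.15, pandas 2.3.3, numpy 2.4.6 and pysam 0.24.0. Fits and background counts used the 19 autosomes, and the X-linked Cstf2 was given for 2 libraries.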

Additional observations from a re-analysis of the deposited data

How the results depend on the processing

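Cstf1 was called proximal under every setting run, with log2 ratios from -3.08 to -2.28 without any 1 library. Members called distal rose from 0 to 1 with a pseudocount of 0.5 RPM (Pcf11, limma adjusted p = 0.0406). They rose to 1 with sites down to 1% (Clp1, against a minor upstream site) and to 1 with the code TE (Cstf3). With a variance trend on average log2 RPM, added after seeing the data, they rose to 2 (Pcf11 and Cpsf6, limma adjusted p = 0.0325 and 0.0422). In the same order, 37.0%, 45.0%, 30.2% and 32.4% of all tested genes were called distal under these settings. The member counts are too small to set apart from these shares. Over all settings with a value, the adjusted p was 0.0325 to 0.303 for Pcf11 and 0.0422 to 0.602 for Cpsf6 (limma, or edgeR on recovered reads: 0.112 and 0.127). The Cpsf6 ratio turned to -0.76 with sites of at least 10% and to -0.26 between the 2 most used sites, neither called, because other sites are then paired. Genes called distal numbered 3204 of 7117 tested (45.0%) at 1% and 792 of 3872 (20.5%) at 10%. They numbered 911 of 5100 (17.9%) with no variance trend (the planned fit) and 796 to 1237 of 5100 (15.6% to 24.3%) without 1 library. Genes called proximal numbered 379 with no variance trend and 382 to 538 without 1 library. Of the libraries left out, replicate 2 lowered both counts most. With no variance trend Cstf1 had an adjusted p of 0.0477 (limma).

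The counts of members at 10 RPM or more, with intronic use and with AATAAA at the leading site kept within 1.5 times their values in all alternatives run. Of 56 alternative levels, 4 moved by more than 1 SD: Cstf3, Cpsf7 and Pcf11 when scaled to autosomal reads (64.6, 75.4 and 74.7 RPM) and Pcf11 without A-rich sites (22.1 RPM). Of 48 intronic shares, 5 moved so: with sites that had reads in every library, Nudt21 went from 17.9% to 100%, Cstf3 from 3.58% to 0.370% and Cstf1 from 0.0966% to 0%, and by introns of the main transcript Cstf3 went to 22.6% and Pcf11 from 0% to 1.11%. Nudt21 had the fewest reads of the members, 123 in all, and its leading site in replicate 3 was not the one in replicates 1 and 2. Tandem ratios were taken within each library, and with 1 group there was no pairing between groups to try.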
